A study of Danio rerio with 4 samples.

Results

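The Balbiani body and germ plasm genes described here are 7 genes, buc, dazl, vasa, nanos3, celf1, ca15b and grip2a, out of 29458 gene names in the mRNA table. They were chosen by name, as known parts or passengers of the germ plasm of the fish oocyte, and every member was found, on 35 of the 56711 transcript rows. The gene that current nomenclature calls ddx4 stands in the table as vasa. The series compared primary growth follicles with pre-vitellogenic follicles, both picked from the ovaries of AB-strain zebrafish aged 3 months by how large they were and how they looked, to look for miRNAs and their possible targets in follicle activation. No transgene, mutation or treatment separates the groups. Each stage gave 1 mRNA library and 1 small RNA library, so no difference here has a replicate check and no p-value is given. A follicle holds the oocyte together with its follicle cells, and the labels do not say how many fish or follicles went into a library.

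The Balbiani body is a large, membrane-free aggregate of RNA, protein, mitochondria and endoplasmic reticulum that forms beside the nucleus of the young oocyte. In zebrafish it is present in primary growth oocytes, moves to the vegetal cortex, disperses there and leaves behind the germ plasm, the maternal material that later specifies primordial germ cells. The protein Bucky ball, the product of buc, organizes it, and mutants that lack Bucky ball form no Balbiani body. RNA-binding proteins such as those of dazl, vasa, nanos3 and celf1 hold, silence or translate the mRNAs that travel with it.

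As deposited, the members did not move together. The levels of buc, nanos3, grip2a and ca15b were lower in pre-vitellogenic follicles, and those of dazl, celf1 and vasa were higher. With a 2-fold mark on the log2(FPKM + 1) scale, 1 of the 7 members was called higher (vasa) and 1 lower (ca15b). Tested were the 14480 genes that reached 1 FPKM in either library. Of these, 29.1% were called higher, 6.53% lower and 35.6% either way, so the 2 calls among 7 members are near the share of genes at large. All 7 members passed that filter in both libraries. The median difference of the members was -0.53, where 4 of 7 were lower. For all 14480 genes tested it was 0.50, where 4362 were lower. FPKM is fragments scaled for transcript length and for the sequencing depth of the library, and the pseudocount of 1 FPKM understates differences of low genes. In bulk follicles, fewer cells of a type and less RNA per cell cannot be told apart.

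**Figure D1:**
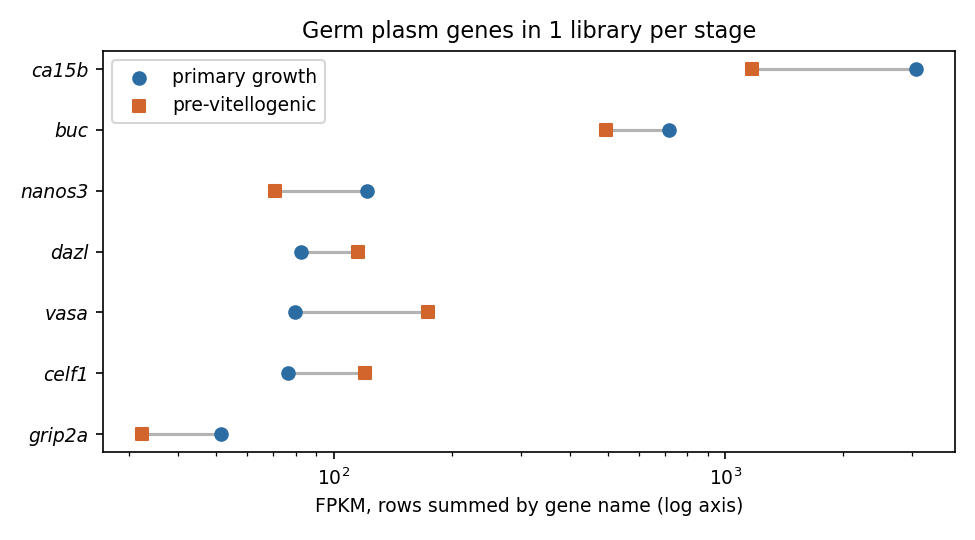
FPKM of each member in the primary growth library (circles) and the pre-vitellogenic library (squares), rows summed by gene name, on a log axis. The 4 genes ca15b, buc, nanos3 and grip2a sit further left in the pre-vitellogenic library, and dazl, vasa and celf1 further right.

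The organizer gene buc (Zv9, chromosome 2, 28022981 to 28027100, plus strand) was at 718 FPKM in primary growth follicles and 496 FPKM in pre-vitellogenic follicles. It was the second most abundant member in both libraries. The ratio of primary growth to pre-vitellogenic FPKM was 1.45 and the log2 difference -0.53, short of the 2-fold mark. Its rank among all gene names was nonetheless 168 in primary growth and 129 in the pre-vitellogenic library, that is, fewer genes stood above it in the library where its FPKM was lower. Nearly all of the signal came from the single protein-coding transcript of 2640 bases, at 710.5 and 479.8 FPKM. A second transcript of 892 bases, annotated as a target of nonsense-mediated decay, was at 7.91 and 15.8 FPKM.

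Among the RNA-binding members, dazl, celf1 and vasa had nearly the same level in primary growth follicles and were spread more widely in pre-vitellogenic follicles. The gene vasa (chromosome 10, 6548795 to 6570246, plus strand) encodes the DEAD-box RNA helicase that marks the animal germ line. It was at 79.4 FPKM in primary growth and 174 FPKM in pre-vitellogenic follicles, a ratio of 2.19 and a log2 difference of 1.12. Its rank went from 1444 to 542. Although vasa passed the mark, 75.7% of all genes tested had a smaller difference, so its call was an ordinary one for this pair of libraries.

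The gene dazl (chromosome 19, 20871401 to 20886168, minus strand) encodes an RNA-binding protein that promotes translation of germ-line mRNAs. It was at 82.3 FPKM in primary growth and 115 FPKM in pre-vitellogenic follicles. The log2 difference of 0.48 lay close to the median of all genes tested and did not pass the mark. The gene celf1 (chromosome 7, 39928131 to 39963046, minus strand) encodes a Bruno-like protein that binds 3' untranslated regions. Its levels were 76.5 and 119.9 FPKM, a log2 difference of 0.64 that did not pass the mark either. Both genes moved up in rank, dazl from 1387 to 934 and celf1 from 1504 to 877.

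The gene nanos3 (chromosome 1, 55787173 to 55788299, minus strand) encodes a zinc-finger RNA-binding protein that is needed to maintain germ cells. It was at 122 FPKM in primary growth and 70.5 FPKM in pre-vitellogenic follicles, with a log2 difference of -0.78, short of the mark. Its only transcript is 1127 bases long, which equals the span of the locus, so the annotated transcript has no intron. In rank it went from 935 to 1814, so nanos3 stood above dazl, vasa and celf1 in primary growth follicles and below them in pre-vitellogenic follicles.

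In the zebrafish embryo nanos3 mRNA is a known target of miR-430, which clears it from somatic cells, and the miRNA is shown here because of that link. One member of its family is listed in the small RNA table, with the seed (bases 2 to 8) in capitals and T written for U as in the table.
dre-mir-430a-3p: tAAGTGCTatttgttggggtag
It was at 21.4 RPM (reads scaled to the library total) in primary growth follicles and 7.77 RPM in pre-vitellogenic follicles. These values are 281 and 148 steps, where a step is the smallest value above 0 of each small RNA library divided by 6. Among the 118 miRNAs listed it stood at rank 21 and rank 60. All listed miRNAs together summed to 4600.4 and 31842 RPM, so its share of them was 0.465% and 0.0244%, a wider gap than in RPM. Both miR-430a-3p and nanos3 were thus lower in the pre-vitellogenic libraries, and no relation between them was tested.

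Of the remaining germ plasm mRNAs, ca15b was the most abundant member and had the largest difference. It encodes a carbonic anhydrase, and its mRNA marks germ plasm and primordial germ cells in zebrafish. The gene (chromosome 12, 4975638 to 4982091, minus strand) was at 3069 FPKM in primary growth and 1171 FPKM in pre-vitellogenic follicles, a ratio of 2.62 and a log2 difference of -1.39. Only 2.95% of all genes tested had a lower difference. It stood at rank 19 of all gene names in primary growth and at rank 29 in pre-vitellogenic follicles, so it was among the most abundant mRNAs of both libraries. The gene grip2a (chromosome 8, 7775173 to 7845005, minus strand) encodes a PDZ-domain adaptor whose maternal mRNA goes to the vegetal pole and is needed to form the dorsal axis. It was the lowest member in both libraries, at 51.6 and 32.3 FPKM, with a log2 difference of -0.66 that did not pass the mark.

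In order of level, the primary growth library had ca15b, buc, nanos3, dazl, vasa, celf1 and grip2a. The pre-vitellogenic library had ca15b, buc, vasa, celf1, dazl, nanos3 and grip2a. Each gene in these orders overlapped its neighbour when the deposited bounds of its rows were summed. The summed lower bound was 0 for dazl, vasa, celf1 and ca15b in both libraries, and for buc in primary growth. Such a gene overlaps any neighbour below it whatever the levels, so for these genes the overlap could not separate neighbours. The closest were dazl and vasa in primary growth, 1.04-fold apart, and celf1 and dazl in pre-vitellogenic follicles, also 1.04-fold apart. Together the members made up 0.575% of all FPKM in primary growth and 0.358% in the pre-vitellogenic library, and ca15b alone made up 0.420% and 0.192%.

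The deposited bounds were wide. Bounds of the 2 stages overlapped on each of the 35 transcript rows of the members. Across the table, the bounds failed to overlap on 6 of the 21781 rows that reached 1 FPKM in either library. The main buc transcript ranged from 0 to 1432 FPKM in primary growth and from 48.4 to 911 FPKM in pre-vitellogenic follicles. A lower bound above 0 was given in both libraries for nanos3 (7.66 to 236 and 0.876 to 140.1 FPKM) and for the main grip2a transcript (4.47 to 88.3 and 0.146 to 47.6 FPKM). For the main transcripts of ca15b, vasa, dazl and celf1 the lower bound was 0 in both libraries.

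**Figure D2:**
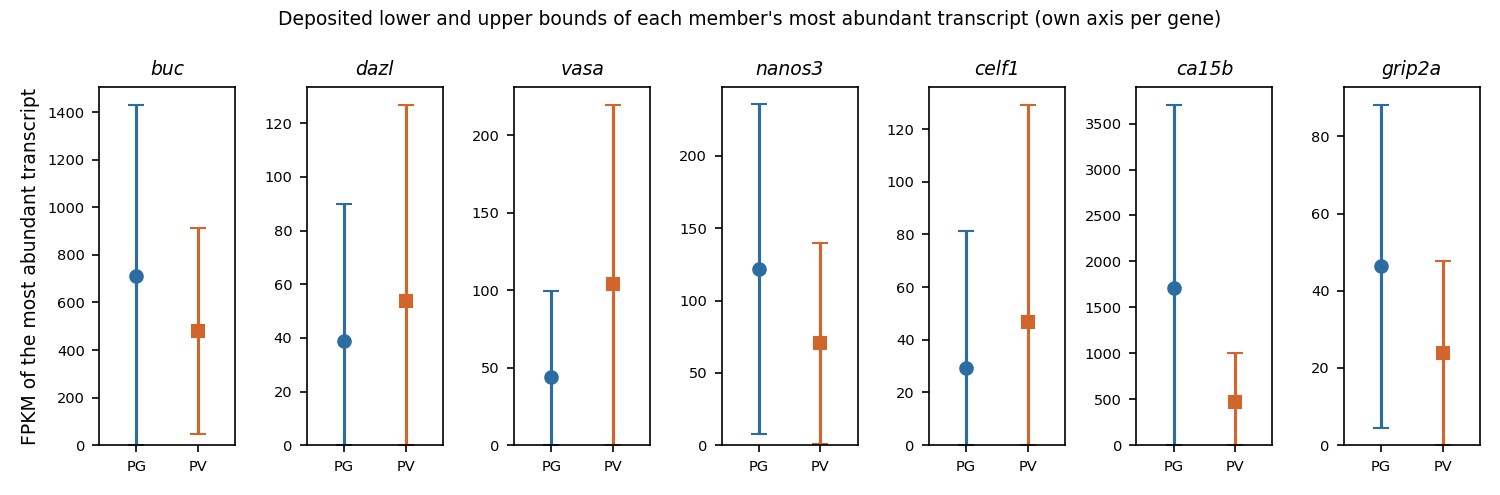
FPKM of the most abundant transcript of each member in the primary growth (PG) and pre-vitellogenic (PV) library, with the lower and upper bounds deposited by the authors as bars and an axis from 0 for each gene. The bars of the 2 libraries overlap for all 7 genes, for example 0 to 90.1 against 0 to 127 FPKM for dazl.

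By transcript row, the genes differed in how their make-up compared between libraries. Of the 35 rows 31 reached 1 FPKM in a library, and of those 4 were at least 2-fold higher and 5 at least 2-fold lower, against 30.4% and 9.09% of all such rows (39.5% either way). Where transcripts of 1 gene overlap, the split of its reads between them is an estimate.

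The 3 most abundant transcripts of dazl kept nearly the same shares. The main dazl transcript of 2035 bases made up 47.2% and 46.8% of the gene, and a transcript of 831 bases made up 30.2% and 31.96%. The third, of 919 bases, made up 16.0% and 18.0%. A dazl transcript of 509 bases was at 1.94 FPKM in primary growth and was listed at 0 in pre-vitellogenic follicles. For celf1 the most abundant row, of 796 bases, made up 38.2% and 38.9%, whereas a row of 3508 bases made up 23.9% and 19.2%. A celf1 row of 1587 bases, at 5.97 and 14.2 FPKM, made up 7.80% and 11.9%. In vasa 6 of 7 transcripts were above 0, and each of the 6 was higher in pre-vitellogenic follicles. Its main transcript of 2519 bases went from 44.3 to 104 FPKM, or from 55.9% to 60.0% of the gene. The largest log2 difference of a vasa row was 1.65, for a transcript of 2876 bases at 6.18 and 21.5 FPKM.

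The make-up of ca15b and grip2a differed more. The main protein-coding transcript of ca15b, 1686 bases long, was at 1711 FPKM in primary growth and 472 FPKM in pre-vitellogenic follicles, a log2 difference of -1.86. A row of 507 bases annotated as a target of nonsense-mediated decay was at 1044 and 380.4 FPKM, also lower. By contrast, a transcript of 766 bases annotated as processed and non-coding had nearly the same estimate, at 292 and 291 FPKM. Its share of the gene was 9.52% and 24.9%, and its deposited bounds were wide, at 0 to 1340 and 0 to 860 FPKM. Rows annotated as protein coding made up 56.2% of ca15b in primary growth and 42.0% in the pre-vitellogenic library. Counted over those rows alone, a choice made after the values were seen, the log2 difference of ca15b was -1.81. The main grip2a transcript of 3124 bases was at 46.4 and 23.9 FPKM and made up 89.9% and 73.96% of the gene. A short grip2a row of 258 bases was at 2.55 and 6.29 FPKM, or 4.95% and 19.5%. Its bounds were 0 to 67.3 and 0 to 86.7 FPKM. This short row lies at 7809038 to 7833527 and the main row at 7775173 to 7802062, so they do not overlap. Their shares thus compare separate stretches of the grip2a locus.

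**Figure D3:**
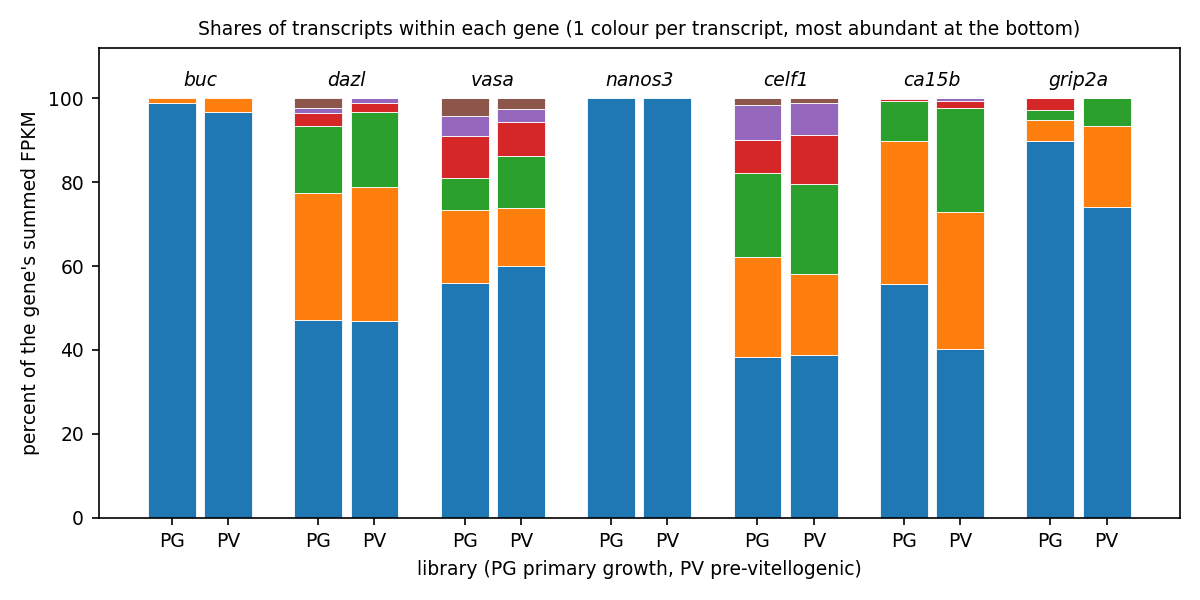
Share of each transcript in the summed FPKM of its gene, in percent, for the primary growth (PG) and pre-vitellogenic (PV) library, with 1 colour per transcript and the most abundant at the bottom. The bottom segment of ca15b shrinks from 55.8% to 40.3% and that of grip2a from 89.9% to 73.96%, while that of dazl is 47.2% and 46.8%.

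The size of each difference depended on how the libraries were scaled, since most genes had higher FPKM in the pre-vitellogenic library. Genes that reached 1 FPKM in each library had a median difference of 0.42. After centring on that median, ca15b (-1.81), nanos3 (-1.20) and grip2a (-1.08) were called lower, buc (-0.95) was just short of the mark, and vasa (0.70) was no longer called. Thus 3 of 7 members were lower and none higher, against 13.2% and 15.2% of all genes on that scale. Scaling both libraries to the same 75th percentile put buc past the mark too, at -1.14, and gave dazl a difference of -0.12, the single change of sign. Scaling to the same FPKM total left the 2 calls as deposited, with vasa at 1.38 and ca15b at -1.13. On that scale 5484 of all 14610 genes tested were called higher and 615 lower. Of the members, ca15b alone was called under all 8 settings compared.

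**Figure D4:**
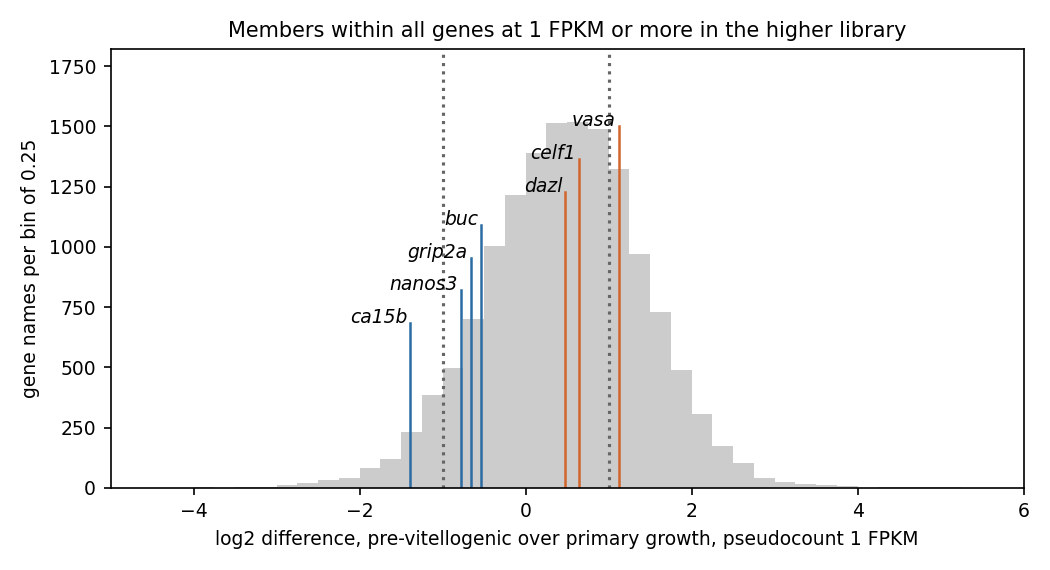
Number of gene names per bin of log2 difference (pre-vitellogenic over primary growth, pseudocount 1 FPKM) among the 14480 genes tested, in grey, with vertical lines at the values of the members and dotted lines at the 2-fold mark. The members at 0.48 (dazl) and 0.64 (celf1) lie near the middle of the grey distribution, and ca15b, at -1.39, lies in its lower tail.

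Differences between these libraries also followed transcript length, and the members are of different lengths. Among protein-coding genes in the length bin of buc, vasa and grip2a, which has a median of 2677 bases, the median difference was 0.83. Within that bin 4.08% of genes had a lower difference than buc and 3.13% a lower one than grip2a, whereas 66.7% had a lower one than vasa. In the bin of nanos3 and ca15b, with a median length of 1131 bases, the median was 0.04, and 12.9% of genes had a lower difference than nanos3 and 2.04% a lower one than ca15b. After centring and removal of the length trend, grip2a was at -1.44, ca15b at -1.39 and buc at -1.28, all past the mark. On that scale nanos3 was at -0.77, vasa at 0.40, dazl at 0.31 and celf1 at 0.09. Among all 14480 genes tested, 1239 were called lower and 1869 higher on that scale.

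**Figure D5:**
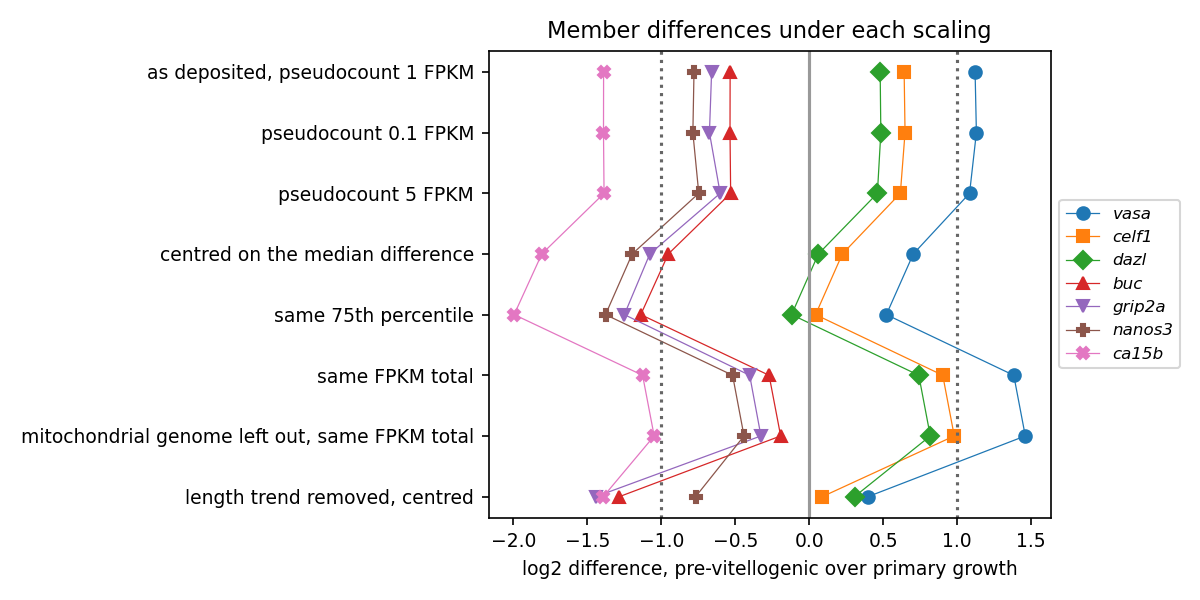
Log2 difference of each member (pre-vitellogenic over primary growth) under each of 8 settings of pseudocount, scaling and length correction, with dotted lines at the 2-fold mark and lines joining the values of a gene. Values of vasa, celf1 and dazl lie to the right of those of buc, grip2a, nanos3 and ca15b in every row, by at least 0.86 between the nearest genes. These sets were taken from the sign of the deposited differences. A setting that shifts all genes alike keeps the distance by construction, and the value of 0.86 is from the length trend removed.

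Ratios of members within a library do not depend on a factor that scales the whole library. There were 9.05 FPKM of buc per FPKM of vasa in primary growth and 2.85 in the pre-vitellogenic library, a 3.17-fold change of the ratio. Against dazl, buc went from 8.73 to 4.31, a 2.03-fold change. The ratio of buc to grip2a was 13.9 and 15.4, and that of nanos3 to grip2a was 2.36 and 2.18, so the ratio of any pair of these 3 genes changed by at most 1.19-fold. Length correction does alter such ratios, since nanos3 was at -0.77 and grip2a at -1.44 with the length trend removed. Likewise the ratio of dazl to celf1 was 1.08 and 0.961. The ratio of vasa to ca15b changed most among the 21 pairs, from 0.0259 to 0.148, or 5.74-fold. Such ratios compare point estimates of 1 library per stage with wide bounds. They describe unequal differences and not which of the genes differed.

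Other genes of the pathway were taken from lists. The deposited counts of each list, here and below, stand beside 29.1% higher and 6.53% lower among all genes tested. Of 17 genes for proteins that build the Balbiani body or germ granules 16 were matched and 15 reached 1 FPKM, of which 3 were called higher and none lower. Their median difference was 0.50, the same as for all genes tested. The higher genes were macf1a, a cytoskeletal linker needed to position and disperse the Balbiani body (2.63 and 10.2 FPKM), kif5ba, a kinesin heavy chain (22.4 and 50.6 FPKM), and fxr2, an RNA-binding protein of the fragile X family (23.5 and 49.4 FPKM). All 3 are long, at 10967, 3920 and 3194 bases, and macf1a alone passed the mark after centring, at 1.21. Named after their values were seen, rbpms2b (485 and 379 FPKM) and rbpms2a (75.1 and 63.8 FPKM), which encode RNA-binding partners of Bucky ball, and tdrd6, a Tudor protein that binds Bucky ball (66.7 and 108 FPKM), did not pass the mark.

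Of 14 other mRNAs of germ plasm, vegetal cortex or primordial germ cells 13 were matched and 12 tested, with 1 higher, none lower and a median of -0.08. The higher gene was nanos1, which was low in both libraries (0.343 and 1.91 FPKM). The most abundant were sybu, which encodes syntabulin, a vegetal cargo adaptor of kinesin (213 and 197 FPKM), asz1, a germ granule gene (174 and 122 FPKM), and gra, a germ plasm mRNA (120.1 and 116 FPKM). None of these passed the mark. After centring, 3 genes of this list were lower and none higher, against 13.2% and 15.2% of all genes on that scale. The gene dnd1, an RNA-binding protein that protects nanos3 mRNA from miR-430 and stands in the table as dnd, was at 50.2 and 28.4 FPKM. Its difference of -0.80, picked out after the values were seen, was close to that of nanos3.

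Of 5 genes whose mRNAs are known from the opposite, animal pole of the fish oocyte, 2 were called lower and none higher. Their median was -0.97, and all 5 differences were below 0 as deposited, against 4362 of all 14480 genes tested. With the mitochondrial genome left out and equal totals, pou5f3 was at 0.06 and the other 4 stayed below 0. The cyclin gene ccnb1 was at 1775 and 683 FPKM, and gdf3, the TGF-beta family gene also known as vg1 and listed as dvr1, was at 815 and 319 FPKM. The kinase gene mos was at 326 and 165 FPKM, short of the mark.

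Relatives of the members were mostly low. Of 19 relatives 16 were matched and 10 reached 1 FPKM, of which 2 were called higher, ddx3xa (29.7 and 94.9 FPKM, a DEAD-box helicase gene listed as ddx3) and nanos1, which was below 1 FPKM in primary growth, and none lower. The more abundant DEAD-box relatives ddx3xb, listed as pl10 (217 and 132 FPKM), and ddx5 (392 and 258 FPKM) had differences of -0.72 and -0.60. Both were called lower after centring, a scale on which 13.2% of all genes tested were lower. The median difference of the 10 relatives tested was 0.15. The relative buc2l, listed under a clone name, was at 339 and 216 FPKM, a difference of -0.65 beside the -0.53 of buc. After centring buc2l was called lower too, at -1.07, while buc, at -0.95, was short of the mark. By contrast, grip1 (0.481 and 1.29 FPKM), grip2b (0.710 and 0.320 FPKM), ca15a (0.141 FPKM and listed at 0) and ca15c (0.272 FPKM and listed at 0) were far below grip2a and ca15b. The 18 matched RNA-binding partners and translational regulators of germ-line mRNAs had a median of -0.28, with 2 higher, among them ddx61 (16.5 and 69.1 FPKM). The 2 lower genes were zar1, an oocyte translation regulator (1086 and 357 FPKM), and eif4e1b, an oocyte form of the cap-binding protein (272 and 126 FPKM). Some genes stand on more than one of these lists.

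Among 11459 protein-coding genes without a clone name, the genes nearest to each member in both libraries were found by Euclidean distance of log2(FPKM + 1), a likeness over 2 libraries only. The nearest to buc was setb, at 682 and 498 FPKM, and the nearest to vasa was prr11, at 80.3 and 181 FPKM. For dazl it was zfand2a, for celf1 smarca5 and for nanos3 pfdn2. The gene ube2ka was nearest to grip2a, at 51.7 and 32.1 FPKM. The glycolytic gene gapdh was nearest to ca15b, at 2984 and 1198 FPKM.

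The libraries differed in other RNA as well. Of 10 oocyte markers 5 of 9 tested were lower and none higher, with a summed level of 8616 and 2765 FPKM. Most of that sum came from zp3.2 (3478 and 993 FPKM) and h1m (2338 and 691 FPKM). Not called were gdf9 (56.4 and 62.2 FPKM), bmp15 (117 and 114 FPKM), nobox (30.2 and 22.6 FPKM) and sycp3 (3.11 and 3.59 FPKM). Oogonial and early meiotic markers summed to 27.7 and 17.5 FPKM over 6 genes, most of it from the synaptonemal complex gene sycp1 (21.9 and 11.3 FPKM), and dmc1 was listed at 0 in both libraries. Of the 4 tested, 1, spo11, was lower and none higher, with a median difference of 0.02. Higher but not called were foxl2l (0.627 and 2.12 FPKM) and gfra1a (0.900 and 2.70 FPKM), both below 1 FPKM in primary growth. With a pseudocount of 0.1 FPKM 2 of the list were called higher and 1 lower, and the same with equal FPKM totals. Among all genes tested, 5211 of 14480 and 5484 of 14610 were higher under these settings, and 1253 and 615 lower. Of 15 follicle cell markers 11 were tested and 9 called higher, but 8 of those 9 were below 1 FPKM in primary growth and passed the filter only through the pre-vitellogenic library, and with a pseudocount of 5 FPKM 1 was called. The markers fshr, nr5a1a and star were listed at 0 in primary growth, while cyp11a1, a steroidogenic gene that carries most of the list's level, was at 119 and 97.2 FPKM. The list summed to 123 and 141 FPKM, and its median level was 0.24 and 2.30 FPKM. After centring 7 of its genes were called higher, with the same 75th percentile 8 and with the length trend removed 6. Among all genes tested, 2194 of 14480, 2027 of 14382 and 1869 of 14480 were higher on these scales. Of 8 stroma and vessel markers, which summed to 7.11 and 37.7 FPKM, 7 were tested and 6 called higher, of which 4 were below 1 FPKM in primary growth. With a pseudocount of 5 FPKM 2 of the list were called higher, and after centring 3. Among all 14480 genes tested 1960 and 2194 were called higher under these settings. None of the 4 blood markers tested was called, and their list summed to 69.2 and 64.8 FPKM. All 13 protein genes of the mitochondrial genome, an organelle that the Balbiani body gathers, were higher, from 0.507% to 5.77% of all FPKM. The part of these shifts in the members' differences was not tested. Total FPKM was 730172 and 608220, and the depth of the mRNA libraries is unknown.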

How the data were processed

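Per the labels' protocols, follicles were sorted, RNA was extracted with column kits, and sequencing was paired-end for the mRNA libraries and single-end for those of small RNA. The authors deposited FPKM per Ensembl transcript with a lower and an upper bound and a status mark. The submitters' processing notes list TopHat2 2.0.11, Cufflinks 2.2.1 and Zv9 without a role. The deposited small RNA values were read as RPM, although their header says RPKM, because 100% of values above 0 were whole multiples (tolerance 0.01 steps) of a step fixed for each library, for short and long miRNAs alike. What that total counts was not stated. All 4 titles read PG, so the cell type label set the group of each library, which the column names PG and PV match.

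Rows were summed by gene name (1183 rows without a name by gene ID) with Python 3.11.15 and pandas 2.3.3. No member row had a failed status, and no other gene of the table overlaps a member's locus. Differences were log2((pre-vitellogenic + 1)/(primary growth + 1)) in FPKM, called at 2-fold among genes that reached 1 FPKM in either library. Length is the mean of a gene's transcripts weighted by FPKM. Its trend was the median difference in 20 bins of the genes that reached 1 FPKM in each library. Shares and medians within a length bin were taken instead from 10 bins of the protein-coding genes tested. With 1 library per stage no test was made. Current symbols were matched by gene ID (21938 of 33734 IDs) or by RefSeq synonyms of GRCz12tu. The calculations were tested on simulated data.

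Named were all members, list genes past the mark (at most 4) or, where fewer than 3 passed, the most abundant, and the genes nearest to each member, of which the closest is given. One list gene is not reported here. The members and lists were chosen with earlier results of these data known. Alternatives were other pseudocounts, scalings, filters, a 1.5-fold mark, the removal of the length trend and other choices of transcript rows.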

Additional observations from a re-analysis of the deposited data

How the results depend on the processing

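Of the 70 values of member differences under other settings, 59 kept their direction and their side of the 2-fold mark. With genes centred on the median, vasa was at 0.70, nanos3 at -1.20 and grip2a at -1.08. With the same 75th percentile, vasa was at 0.52, buc at -1.14, nanos3 at -1.38, grip2a at -1.25 and dazl at -0.12, a reversed sign. With the length trend removed, vasa was at 0.40, buc at -1.28 and grip2a at -1.44. Under these 3 settings 0 members were higher, while 3, 4 and 3 were lower. Among all genes tested, 2194 of 14480, 2027 of 14382 and 1869 of 14480 were higher. Lower were 1913, 2258 and 1239 of these genes. With a 1.5-fold mark on the deposited scale 2 members were higher and 3 lower, against 6718 and 1902 of all 14480 genes tested. Using the most abundant or the protein-coding rows only (the latter chosen after seeing the data) changed no member's call. In all of these settings the cause was not tested beyond the shift that each scaling makes by construction.

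Counts over all genes were 2194 higher and 1913 lower after centring, 2027 and 2258 with the same 75th percentile, 1960 and 495 with a pseudocount of 5 FPKM, and 6718 and 1902 with a 1.5-fold mark. With the length trend removed 1869 were higher and 1239 lower. With the same FPKM total 5484 of 14610 were higher and 615 lower. With the mitochondrial genome left out 5915 of 14714 were higher and 548 lower. The deposited share of higher among called genes thus rests on the scaling.

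List counts moved too. After centring, with the same 75th percentile and with the length trend removed, the assembly list had 1 gene higher each time (with 1 lower at the 75th percentile), the list of germ plasm mRNAs 0, 0 and 2 higher and 3, 4 and 3 lower, the relatives 1 higher and 3 lower each time, and the partners 1, 1 and 0 higher and 5, 6 and 5 lower. The animal pole list had 4 lower with the length trend removed. With a pseudocount of 5 FPKM the assembly list, the germ plasm mRNAs and the relatives had 1, 0 and 1 higher, and with 0.1 FPKM the relatives had 4 higher. Among all 14480 genes tested, 1960 were higher at 5 FPKM and 5211 at 0.1 FPKM. With the same FPKM total 1 partner was lower. With the mitochondrial genome left out 1 partner was lower, and 6 assembly genes and 3 germ plasm mRNAs were higher. On that scale 5915 of all 14714 genes tested were higher and 548 lower.

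No paired analysis was possible because each stage has 1 mRNA library. The read depth is unknown for the mRNA libraries, so the precision of low values is known only through the deposited bounds.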
